A study of Mus musculus with 24 samples.

Results

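The 39 genes described here encode proteins of the skeletal muscle fibre and were followed through 24 RNA sequencing libraries of mouse white fat. They were taken by gene symbol from a table of 54532 genes: 15 are used mainly by fast fibres, 9 mainly by slow fibres and 15 by both. The fat came from C57BL6 mice given an adeno-associated virus (AAV), and 4 treatments were sampled: AAV-irisin on high-fat diet (HFD), AAV-GFP on HFD, AAV-irisin on chow and AAV-GFP on chow, each for 18 weeks. Irisin is a hormone cut from the product of Fndc5, and GFP is a jellyfish protein used as the control cargo. Inguinal fat (iWAT), which lies under the skin, and epididymal fat (eWAT), which lies in the abdomen, gave 3 libraries per treatment, so that there were 8 groups of 3. Neither separate mice for the 3 replicates nor the promoter of the vectors is stated in the labels, so a p-value here measures only the spread between these libraries. The genes were chosen by their high FPKM in the iWAT libraries of irisin mice on chow. Those values are therefore given as a description.

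Muscle contracts when myosin in the thick filament pulls on actin in the thin filament, each pull being licensed by calcium through the troponin complex. Adult fibres build this machine from alternative isoforms. Fast fibres use the myosin heavy chains of Myh4 (IIb), Myh1 (IIx) and Myh2 (IIa), with fast troponins, the calcium pump of Atp2a1 and the calcium buffer parvalbumin of Pvalb, while slow fibres use Myh7 and slow troponins, several of which are also the heart's isoforms. The ratio of paired isoforms thus describes the kind of muscle RNA in a sample. White fat holds no muscle fibres of its own, although adipocytes and stromal cells express some of these genes at low levels.

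Levels are FPKM, fragments scaled by gene length and sequencing depth, as deposited. The libraries held 14.1 M to 19.7 M gene reads, and 1 FPKM in a gene of 2000 bases stood for 26.7 to 39.3 reads. The depot labels fitted their markers: Tbx15 was at 2.88 to 14.2 FPKM in iWAT and at most 0.0896 FPKM in eWAT, and Wt1 was at least 1.19 FPKM in eWAT and at most 0.0204 FPKM in iWAT. Besides the muscle-rich iWAT library described next, 3 libraries stood apart by genes of other tissues. Cd79a, a B cell gene, was at 145 FPKM in iWAT GFP HFD 1 and at 43.6 FPKM in eWAT GFP chow 1, against 0.487 to 8.19 FPKM in the other 22 libraries. Adam7, an epididymal gene, was at 291 FPKM in eWAT GFP HFD 3 and at 0 in the other 23.

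The 39 genes summed to 159.6, 445.2 and 5894 FPKM in irisin chow libraries 1, 2 and 3 of iWAT. In the other 21 libraries the sum was 35.6 to 127 FPKM, with a median of 60.5 FPKM. All 3 libraries were thus above every other, by 2.64, 7.36 and 97.5 times that median, and they also differed widely from each other. As a share of gene reads the 39 genes took 1.52% of library 3 (95% Wilson interval 1.516% to 1.528%), 0.114% of library 2 (0.113% to 0.116%) and 0.0399% of library 1 (0.0389% to 0.0409%). The other 21 libraries ran from 0.00764% to 0.0225%. These intervals, like all those below, cover counting error only. In bulk tissue a smaller number of muscle fibres and less muscle RNA per fibre cannot be told apart.

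**Figure D1:**
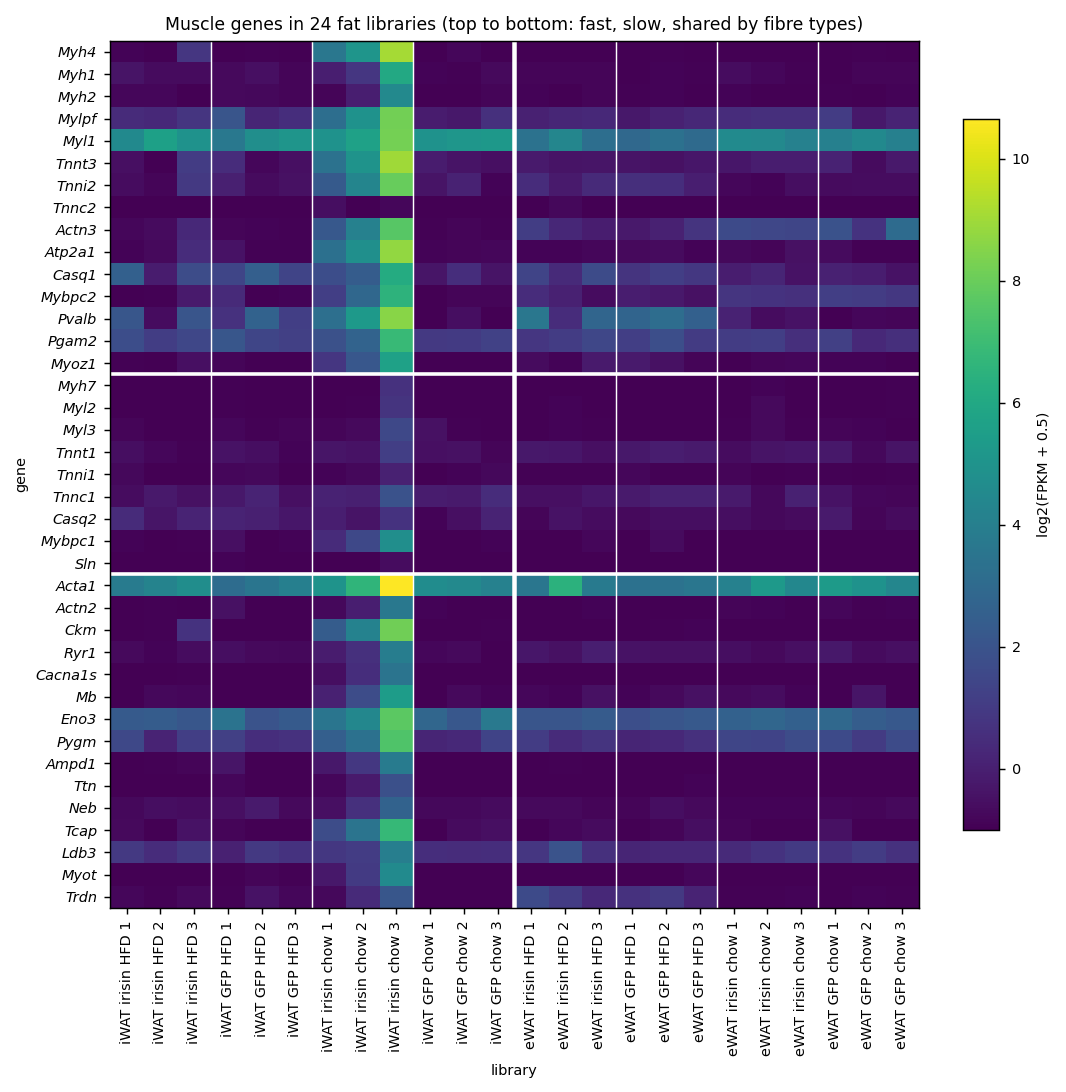
Level of each of the 39 genes (down the page, on the log2(FPKM + 0.5) scale given by the colour bar) in each of the 24 libraries (across; iWAT left and eWAT right of the thick white line). The column of iWAT irisin chow 3 is the brightest for 38 genes, Tnnc2 stays dark throughout, and Myl1, Acta1 and Eno3 are present in every library.

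Among the 39 genes 38 had their highest value of all 24 libraries in iWAT irisin chow 3, against 4.07% of the genes tested in iWAT. For 29 of the 39, all 3 irisin chow libraries lay above all 3 GFP chow libraries of iWAT, against 8.22% of the genes tested in iWAT, where 22 of the 39 were tested. Since these values led to the list, the counts describe it and nothing is read from them. No member was at 0 in library 3 and 3 members were at 0 in each of libraries 1 and 2, against 6 to 13 members in each of the other 21 libraries.

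The leading fast fibre gene was Myh4, which encodes the IIb heavy chain of the fastest and most glycolytic fibres (chr11:67238029-67260446, plus strand, in the deposited annotation, which names no build and places 38 of the 39 genes as GENCODE M21 does). It was at 11.9, 32.9 and 543 FPKM in the irisin chow libraries of iWAT, against 0.00912, 0.0787 and 0 FPKM in the GFP chow libraries. The groups did not overlap, and the lowest irisin library held 1044 Myh4 reads. Myh1, the IIx chain, followed at 0.475, 1.28 and 64.8 FPKM, against 0.0432, 0.0186 and 0.117 FPKM on GFP. Myh2, the IIa chain, was at 0.0577, 0.478 and 22.1 FPKM, against 0.00769, 0.00829 and 0.0523 FPKM. Here too the groups stayed apart, but the lowest irisin value of Myh2 was within reach of several libraries on HFD, where it ran up to 0.114 FPKM in iWAT. The slow heavy chain Myh7 was listed at 0 in libraries 1 and 2 and at 1.09 FPKM (148 reads) in library 3, and was at 0 in all 3 GFP chow libraries.

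Of the summed FPKM of these 4 heavy chains Myh4 made 95.7%, 94.9% and 86.1% in libraries 1, 2 and 3, Myh1 made 3.82%, 3.68% and 10.3%, and Myh2 made 0.464%, 1.38% and 3.50%. Myh7 made 0.172% in library 3. The order IIb over IIx over IIa over slow was the same in the 3 libraries, with Myh7 listed at 0 in 2 of them. Library 3 nevertheless held relatively more Myh1: the Myh4 to Myh1 ratio was 25.1 (95% exact interval 18.5 to 34.7) and 25.8 (21.7 to 30.9) in libraries 1 and 2, and 8.38 (8.16 to 8.60) in library 3. Of the 50-base stretches of these transcripts, 18.9% (Myh4), 30.5% (Myh1), 24.6% (Myh2) and 20.0% (Myh7) also occur in transcripts of another gene, mostly another myosin. No source used here says how reads from those stretches were assigned, and the small shares are the least certain.

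The other pairs of the thick and thin filament showed the same lean to the fast isoform. The regulatory light chain pair Mylpf and Myl2 stood at 290 and 1.17 FPKM in library 3, a ratio of 249 (180 to 356). The alkali light chains Myl1 and Myl3 stood at 297 and 2.38 FPKM, a ratio of 125 (99.6 to 158). Myl1 is not a clean marker, however, since it was at 7.13 to 49.0 FPKM in the other 21 libraries. Among the troponins, which carry the calcium signal to actin, the tropomyosin-binding Tnnt3 exceeded its slow partner Tnnt1 by 36.2, 127 and 295 times in libraries 1, 2 and 3. The inhibitory subunit Tnni2 exceeded Tnni1 by 118, 191 and 443 times. In the GFP chow libraries Tnnt3 was at 0.416, 0.262 and 0.196 FPKM and Tnni2 at 0.257, 0.593 and 0.0415 FPKM, so both were far below the lowest irisin chow values of 10.1 and 4.49 FPKM. In the calcium store the fast calsequestrin Casq1 exceeded Casq2 by 6.05, 18.0 and 64.3 times. Casq2 was at 0.477, 0.267 and 1.13 FPKM in the irisin chow libraries, against 0.0401, 0.195 and 0.613 FPKM in the GFP chow libraries, and the groups overlapped.

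**Figure D2:**
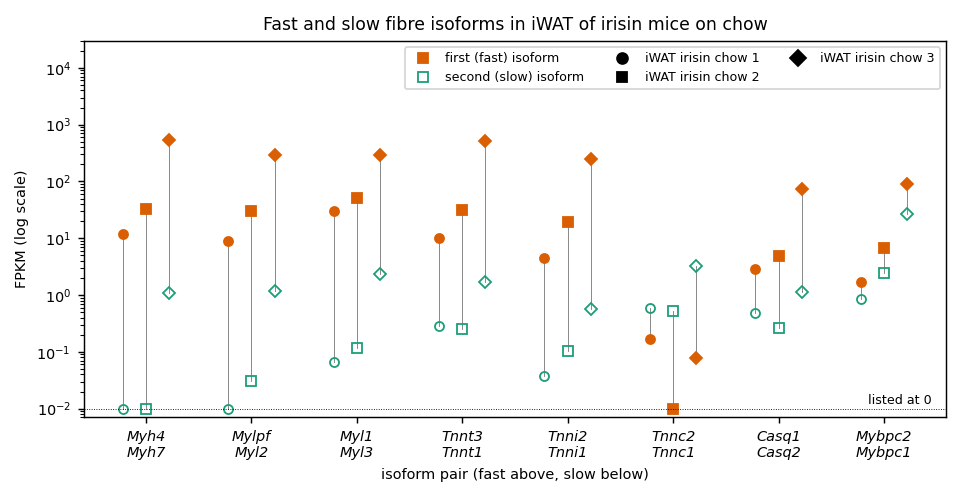
FPKM on a log axis of 8 pairs of fast (filled) and slow (open) isoforms in the 3 iWAT libraries of irisin mice on chow; grey lines join the isoforms of a pair in a library, and values at 0 are drawn on the dotted line. The fast isoform is the higher one in 7 pairs, by 3.38 to 500 times in library 3, and the slow one is higher for Tnnc2 and Tnnc1.

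For Myh4 against Myh7 the ratio was 500 in library 3 (425 to 591). In libraries 1 and 2, where Myh7 had no read, it was at least 498 and at least 1550, counting 3 reads per library as the limit of a zero. The myosin-binding protein C pair was the most even, with Mybpc2 over Mybpc1 by 1.98 (1.41 to 2.81), 2.84 (2.38 to 3.41) and 3.38 (3.21 to 3.57) times. Mybpc1, the isoform named for slow muscle but present in fast fibres too, was at 0.864, 2.41 and 27.0 FPKM, against 0.0121, 0 and 0.0412 FPKM on GFP. It was the largest part of what the 9 slow genes summed to, 2.32, 3.71 and 38.4 FPKM, where the 15 fast genes summed to 98.6, 272 and 3319 FPKM. Sln, which encodes the calcium pump inhibitor sarcolipin, was at 0, 0 and 0.144 FPKM, the last being 3 reads.

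**Figure D3:**
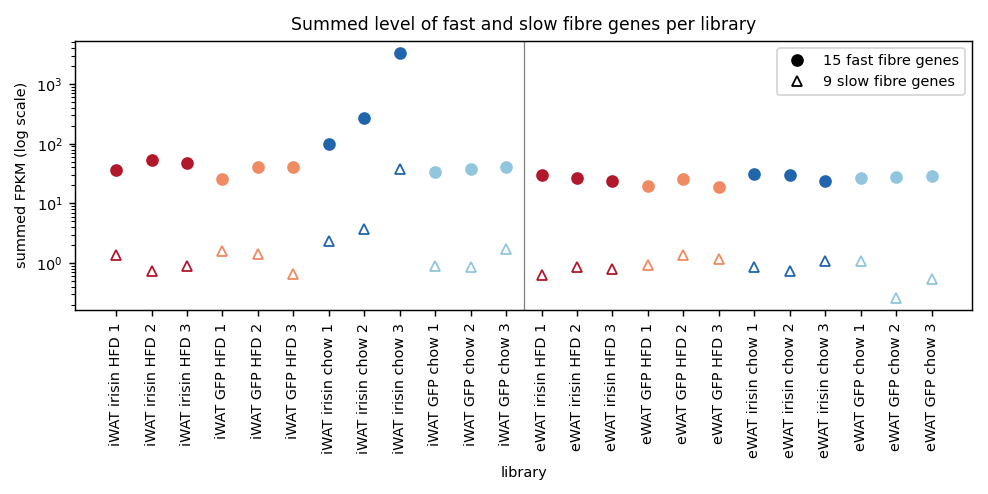
Summed FPKM (log axis) of the 15 fast (filled circles) and 9 slow fibre genes (open triangles) in each library, coloured by treatment. The fast sum of iWAT irisin chow 3 is 3319 FPKM, against 19.0 to 52.6 FPKM in the 21 libraries outside that group, and its slow sum is 38.4 FPKM against 0.264 to 1.69 FPKM.

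The exception among the pairs was troponin C, the calcium-binding subunit. The fast gene Tnnc2 (chr2:164777161-164779967, minus strand, in the deposited annotation) held 2, 0 and 1 reads in irisin chow libraries 1, 2 and 3, or 0.172, 0 and 0.0790 FPKM, where 3 reads would be 0.229 to 0.257 FPKM. The slow and cardiac gene Tnnc1 was at 0.593, 0.527 and 3.28 FPKM. In library 3 Tnnc2 was therefore 0.0241 times Tnnc1 (0.000599 to 0.140), while the partner subunits Tnnt3 and Tnni2 stood at 508 and 249 FPKM. In GENCODE M21, 74.0% of the exonic bases of Tnnc2 lie within exons of Ube2c, a ubiquitin-conjugating enzyme gene on the opposite strand. The next largest such shares among the 39 genes were 31.9% for Mb and 21.9% for Atp2a1. No source used here says whether reads were counted by strand, and the part of this overlap in the low value was not tested.

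Genes shared by both fibre types were high in the same libraries. Acta1, the skeletal actin, was at 30.9, 99.0 and 1614 FPKM in the irisin chow libraries, against 25.3, 21.9 and 16.9 FPKM in the GFP chow libraries of iWAT. Ckm, the creatine kinase that buffers ATP, was at 4.83, 17.2 and 279 FPKM, against 0, 0 and 0.0213 FPKM. Both groups were apart for each gene, by a narrow margin for Acta1 and a wide one for Ckm.

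Of the calcium handling genes, Atp2a1, the pump that refills the store, was at 9.52, 27.6 and 435 FPKM, against 0.0474, 0.0510 and 0.0715 FPKM on GFP. Pvalb, which binds cytosolic calcium in fast fibres, was at 9.17, 39.6 and 383 FPKM, against 0, 0.170 and 0 FPKM. The release channel Ryr1 and its voltage sensor Cacna1s were lower, at 14.8 and 10.7 FPKM in library 3. Mb, the oxygen carrier of oxidative fibres, was at 0.552, 2.82 and 43.2 FPKM, against 0, 0.119 and 0.0417 FPKM. The giant spring protein gene Ttn was at 0.0823, 0.391 and 3.08 FPKM, against 0.00188, 0.00456 and 0.00106 FPKM, and its long model gave it 5687 reads in library 3. In each of these 4 genes given on both vectors the lowest irisin chow value was above the highest GFP chow value.

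The enzymes and structural genes had the same order of libraries. Pygm, the glycogen phosphorylase that McArdle disease lacks, reached 174 FPKM in library 3, Eno3 (beta-enolase) 209 FPKM, Pgam2 (phosphoglycerate mutase) 115 FPKM and Ampd1 (AMP deaminase) 14 FPKM. In the Z disc, Actn3, the alpha-actinin of fast fibres, was at 199 FPKM in library 3 and Actn2, its partner in all fibres, at 12.3 FPKM. Tcap (telethonin) was at 112 FPKM, Myoz1 (a calcineurin-binding protein of fast fibres) at 50.4 FPKM, Myot (myotilin) at 23.3 FPKM and Ldb3 at 15.5 FPKM. Neb, the ruler of the thin filament, was at 5.89 FPKM and Trdn, which anchors calsequestrin to the release channel, at 3.89 FPKM. Over all 39 genes 33 were highest in library 3, next in library 2 and lowest of the 3 in library 1.

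For 14 members the mean of the GFP chow libraries was at most 5% of the irisin chow 1 value and that library held at least 10 reads. Less that background, these 14 genes were 7.91 to 16.5 times (median 12.2) higher in library 3 than in library 2, and 2.77 to 5.69 times (median 4.02) higher in library 2 than in library 1. These 14 were kept for being high in irisin chow 1, and the ratios describe them only. Members outside the 14 spread further: less background, library 3 was above library 2 by 53.2 times for Myh1, 48.4 times for Myh2 and 4.81 times for Trdn.

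**Figure D4:**
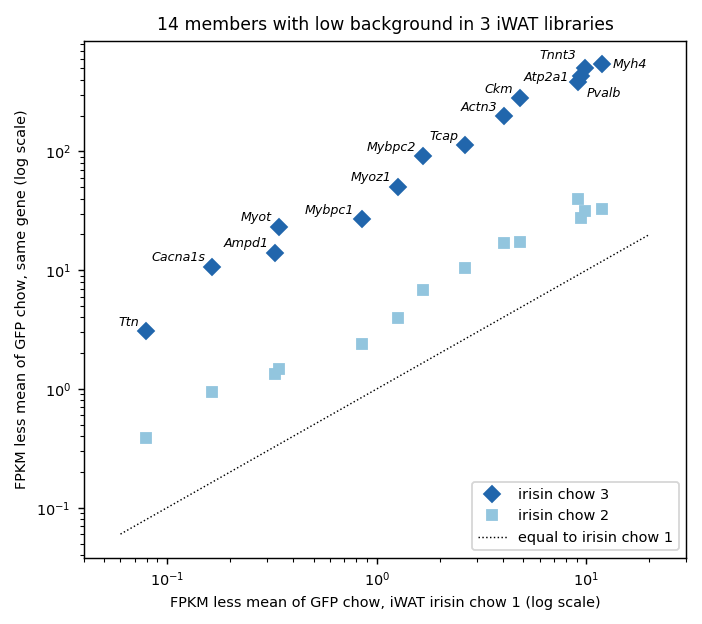
Level above the GFP chow mean of 14 members with low background in iWAT irisin chow 3 (dark diamonds) and 2 (light squares), against the level of the same gene in irisin chow 1; both axes are FPKM on a log scale and the dotted line marks equality. Both sets run roughly parallel to the line, with medians of 4.02 times for library 2 over library 1 and 12.2 times for library 3 over library 2.

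Muscle genes are switched on through short motifs near their start sites: E-boxes bound by the MyoD family, MEF2 sites and the CArG boxes bound by serum response factor. The 250 bases before the transcript start were available for 29 of the 39 genes (RefSeq, GRCm38.p6), and 5 are shown because their genes carry the results on muscle in iWAT (Myh4, Ckm, Acta1) or on diet in eWAT (Pvalb, Casq1). Capitals mark E-boxes (CANNTG), MEF2 sites and CArG boxes on either strand; each sequence runs 5′ to 3′ along its gene. Myh4 is from chr11:67237562-67237811 (plus strand), Ckm from chr7:19410844-19411093 (plus), Acta1 from chr8:123894776-123895025 (minus), Pvalb, at the first of its 2 starts, from chr15:78206401-78206650 (minus), and Casq1 from chr1:172219896-172220145 (minus).
Myh4: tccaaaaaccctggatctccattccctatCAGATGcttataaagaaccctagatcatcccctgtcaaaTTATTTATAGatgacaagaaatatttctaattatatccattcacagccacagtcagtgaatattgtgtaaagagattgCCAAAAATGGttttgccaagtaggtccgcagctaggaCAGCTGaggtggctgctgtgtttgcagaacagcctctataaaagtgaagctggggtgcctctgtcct
Ckm: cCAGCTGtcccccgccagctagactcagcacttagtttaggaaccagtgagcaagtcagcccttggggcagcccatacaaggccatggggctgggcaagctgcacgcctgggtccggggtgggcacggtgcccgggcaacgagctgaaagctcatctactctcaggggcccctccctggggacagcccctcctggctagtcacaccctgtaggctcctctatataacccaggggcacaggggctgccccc
Acta1: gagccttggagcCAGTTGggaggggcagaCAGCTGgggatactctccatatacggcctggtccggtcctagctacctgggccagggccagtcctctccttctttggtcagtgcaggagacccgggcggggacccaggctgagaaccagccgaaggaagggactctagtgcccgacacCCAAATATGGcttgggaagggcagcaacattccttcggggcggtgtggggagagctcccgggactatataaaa
Pvalb: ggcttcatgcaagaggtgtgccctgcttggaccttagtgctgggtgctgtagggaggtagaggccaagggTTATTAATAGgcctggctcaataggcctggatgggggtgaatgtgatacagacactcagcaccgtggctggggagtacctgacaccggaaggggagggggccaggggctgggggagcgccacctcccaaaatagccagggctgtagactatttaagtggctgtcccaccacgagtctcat
Casq1: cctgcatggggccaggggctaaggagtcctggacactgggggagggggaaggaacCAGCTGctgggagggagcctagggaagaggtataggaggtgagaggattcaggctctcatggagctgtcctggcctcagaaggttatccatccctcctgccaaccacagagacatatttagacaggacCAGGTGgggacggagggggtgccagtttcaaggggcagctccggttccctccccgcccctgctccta

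The Myh4 window holds 2 E-boxes, 1 MEF2 site and 1 CArG box, and the Acta1 window 2 E-boxes and 1 CArG box. Ckm has 1 E-box, Casq1 has 2, and the Pvalb window has 1 MEF2 site and no E-box. Over the first listed start of each gene, CANNTG occurred in 82.8% of the 29 windows and in 66.0% of the windows of 27025 genes. Its CAGCTG form occurred in 41.4% against 12.8%, and CACCTG, also counted within CANNTG, in 27.6% against 17.1%. MEF2 sites occurred in 20.7% against 3.01%, CArG boxes in 13.8% against 1.40% and TATAAA, which may overlap a MEF2 site, in 17.2% against 13.0%. A match describes the letters of the window and does not show a bound site.

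Muscle genes outside the 39 were looked at through lists that were, like the members, drawn up with earlier results known. Of 28 further sarcomere genes, 24 were highest in iWAT irisin chow 3 and 19 had all irisin chow above all GFP chow libraries of iWAT. Among genes tested in iWAT, as only 11 of the 28 were, 4.07% and 8.22% did so. Tpm2, a tropomyosin, led with 15.4, 13.3 and 175 FPKM in the irisin chow libraries, against 2.79, 2.30 and 13.3 FPKM in the GFP chow libraries. Of 17 further genes of the membrane triad (8 tested), where nerve impulse meets calcium store, 14 and 10 did so. Of 14 further metabolic genes (10 tested) 8 and 4 did so. The mitochondrial creatine kinase Ckmt2 was at 0.277, 2.22 and 38.6 FPKM, against 0, 0.0398 and 0.0837 FPKM on GFP. Of the 10 myogenic regulators, 6 were highest in library 3 and none was apart. Myod1 was at 0, 0.0655 and 0.985 FPKM and Myf6, the regulator of mature fibres, at 0, 0.241 and 4.05 FPKM, while Pax7, the marker of muscle stem cells, was at 0 in all 3. The embryonic and perinatal heavy chains Myh3 and Myh8 reached 0.136 and 0.0805 FPKM, and the acetylcholine receptor subunits of the neuromuscular junction Chrna1 and Chrnd 0.144 and 0.0577 FPKM. Of the 10 junction genes 4 were highest in library 3 and 1 was apart. The 10 summed to 4.64, 2.78 and 8.04 FPKM in the irisin chow libraries, against 3.18, 2.48 and 8.84 FPKM in the GFP chow libraries of iWAT.

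Marker lists of other tissues were mixed. Of 6 tendon genes 2 were highest in library 3 and 1 had all irisin chow above all GFP chow libraries. Of 8 brown adipocyte genes 2 and 1 did so, of 8 B cell genes 0 and 2, and of 4 depot markers 0 and 2. The shares of genes tested in iWAT were 4.07% and 8.22%. Of 10 cardiac genes 1 was highest in library 3 (Actc1, 1.45 FPKM) and none was apart; Nppa and Nppb were at 0 and Myh6 at 0.194, 0.0272 and 0.132 FPKM in the irisin chow libraries. Of 10 smooth muscle genes 1 was highest in library 3, the intermediate filament gene Des at 61.0 FPKM, which skeletal fibres share. Of 11 skin genes 0 were highest in library 3 and 0 were apart. They summed to 4.45, 6.35 and 5.62 FPKM in the irisin chow libraries, against 6.54, 4.64 and 4.56 FPKM on GFP chow. The keratin genes Krt5 and Krt14 were at 0 in the irisin chow libraries, where 4 of the 11 were. Of the 12 nerve and Schwann cell genes, 2 were highest in library 3, but 8 had all irisin chow above all GFP chow libraries. Among genes tested in iWAT, as 11 of the 12 were, the shares were 4.07% and 8.22%. The list summed to 313, 161 and 285 FPKM in the irisin chow libraries, against 118, 127 and 140 FPKM on GFP chow. Adipoq, the adipocyte hormone gene, was at 1475, 1308 and 1463 FPKM in irisin chow libraries, against 1568, 1805 and 1699 FPKM in GFP chow libraries. The part of nerve in the muscle gene levels was not tested.

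By the linear model (limma on log2(FPKM + 0.5), p adjusted by Benjamini and Hochberg over all genes, called under 0.05), 0 members were called for irisin against GFP on chow in iWAT, and 0% of 16125 genes. All 22 members tested were higher in irisin mice, with log2 fold changes from 0.52 to 6.85 (median 3.85, against -0.01 over all genes). These 22 are not all members: 16 members were under the expression minimum in both depots, and 11 of the 22 reached it only through the irisin chow libraries, so they had to differ. For Myh4 the log2 fold change was 6.85 ± 1.06 (SE; adjusted p = 0.356), for Atp2a1 6.48 ± 1.03 (0.356) and for Acta1 2.99 ± 1.05 (0.919). At an unadjusted p under 0.05 there were 19 members and 688 genes, and limma's voom on recovered reads also called 0 genes. Without irisin chow library 1 the model called 7 members, and without library 3 it called Myh4 and Atp2a1. The shares of all genes called in these fits are not given here. As the irisin chow values chose the list, nothing is read from these calls.

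For irisin against GFP on HFD in iWAT, 0 of the 22 members were called (0% of genes), none had an unadjusted p under 0.05, 431 genes did, and voom called 0 members. Only 11 of the 22 reached the expression minimum without the irisin chow libraries, which are not compared here. Those libraries also entered the estimate of spread, so the count of 0 does not show equal levels. The median log2 fold change of the members was 0.15, with 14 of 22 above 0. Myh4 was at 0.0450, 0 and 1.30 FPKM in irisin HFD libraries of iWAT, against 0, 0.0214 and 0 FPKM in GFP HFD libraries, and Ckm at 0, 0.0257 and 1.15 FPKM, against 0 FPKM in all 3. For Myh4 the log2 fold change was 0.64 ± 1.06 (adjusted p = 0.963 by limma). One library, iWAT irisin HFD 3, thus held 140 reads of Myh4 and 60 of Ckm, with Tnnt3 at 1.62, Tnni2 at 1.41 and Atp2a1 at 0.897 FPKM, the highest of the 21 libraries for each of these 5 genes. Its Myh4 made 89.3% of the 4 heavy chains. The difference of the vector effect between diets was called for 0 members in iWAT (0% of genes; 15 members and 996 genes at an unadjusted p under 0.05; 0 by voom).

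The library rich in B cell genes, iWAT GFP HFD 1, held another mixture. Mylpf was at 3.69 FPKM (77 reads) there, against 0.334 to 1.61 FPKM in the other 20 libraries outside iWAT irisin chow, and Ttn had 186 reads, Actn2 16 and Ampd1 20. Myh4, Ckm, Mb and Myot had no read in it, while Myh1 had 14 and Myh2 had 16. Its Mybpc2 was at 0.789 FPKM and its Tnnt3 at 0.900 FPKM. This set therefore differed from the Myh4-led one of the iWAT irisin chow libraries.

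Diet in irisin mice was compared over the same irisin chow libraries of iWAT. There 12 of the 22 members tested were called lower on HFD, against 4.19% of genes, and 0 were called higher (4.82% of genes; 9.01% in either direction). The median log2 fold change was -3.59. Since the irisin chow values chose the list, nothing is read from this count, and voom on the recovered reads called 1 of them. The count was 6 without irisin chow 2, 6 without irisin HFD 2 and 5 without irisin HFD 3.

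In eWAT, where no library held a muscle profile, diet was compared within each vector. Myh4 was at most 0.0292 FPKM and Ckm at most 0.0384 FPKM in its 12 libraries. For 4 of the 39 members all 6 HFD libraries lay above all 6 chow libraries, namely Pvalb, Trdn, Casq1 and Tnni2. All 4 were among the 14 members tested in eWAT, and 8.33% of genes tested there did so. For 1 of the 39, Mybpc2, also among the 14, all 6 lay below (7.04% of genes tested). As the members were chosen with results of these data known, these counts describe them only. In iWAT no member had all 6 HFD above all 6 chow libraries (4.76% of genes) or all 6 below (3.16%). Pvalb was at 11.8, 0.897 and 6.56 FPKM on HFD and 0.576, 0.156 and 0.248 FPKM on chow in irisin mice, and at 6.26, 8.49 and 5.43 FPKM on HFD and 0, 0.0693 and 0.0575 FPKM on chow in GFP mice. Trdn was at 2.54, 1.63 and 0.784 FPKM on HFD and 0.0192, 0.0231 and 0.0345 FPKM on chow in irisin mice, and at 1.06, 1.38 and 0.610 FPKM on HFD and 0.00705, 0.0386 and 0.0320 FPKM on chow in GFP mice. In both genes the lowest HFD library, irisin HFD 2 for Pvalb and GFP HFD 3 for Trdn, was still above the highest chow library.

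Casq1, whose protein is held near the release channel by that of Trdn, was at 2.12, 0.810 and 2.65 FPKM on HFD and 0.461, 0.636 and 0.231 FPKM on chow in irisin mice. In GFP mice it was at 1.19, 1.71 and 1.35 FPKM on HFD and 0.541, 0.444 and 0.245 FPKM on chow. Tnni2 was at 0.899, 0.384 and 0.810 FPKM on HFD and 0.0802, 0.0361 and 0.172 FPKM on chow in irisin mice, and at 0.976, 0.938 and 0.486 FPKM on HFD and 0.132, 0.145 and 0.160 FPKM on chow in GFP mice. The HFD libraries were apart from the chow libraries in both genes, by a small margin for Casq1. Levels of Tnni2 stayed under 1 FPKM throughout.

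These 4 genes were the members called higher on HFD in eWAT, out of 14 tested, with each vector: 4 of 14 in irisin mice, against 9.47% of genes, and 4 of 14 in GFP mice, against 14.7%. The log2 fold changes for Pvalb were 2.61 ± 0.61 in irisin mice (adjusted p = 0.0165 by limma) and 3.72 ± 0.61 in GFP mice (0.00221). For Trdn they were 1.95 ± 0.30 (0.00312) and 1.5 ± 0.30 (0.00492), for Casq1 1.25 ± 0.31 (0.0210) and 1.08 ± 0.31 (0.0257), and for Tnni2 0.98 ± 0.23 (0.0184) and 0.99 ± 0.23 (0.0114). The 2 diet comparisons share no library in the groups compared. All 12 eWAT libraries gave the 1 estimate of spread behind both, so their p-values are not independent. The irisin count of 5 in both directions, against 17.4% of genes, was 2 without any 1 of the irisin chow libraries, 3 without irisin HFD 1, 1 without irisin HFD 3 and 1 when only the groups compared were fitted. The members' median log2 fold change was -0.09 in irisin mice and -0.40 in GFP mice, against 0.00 over all genes in both, so the set as a whole did not rise.

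Members called lower on HFD in eWAT were 1 of 14 in irisin mice (7.93% of genes), Pygm, and 4 of 14 in GFP mice (11.8% of genes), Pygm, Mybpc2, Myl1 and Actn3. Pygm was at 1.58, 0.848 and 1.17 FPKM on HFD and 2.24, 2.08 and 2.72 FPKM on chow in irisin mice (log2 fold change -0.76 ± 0.22, adjusted p = 0.0374 by limma). In GFP mice it was at 0.662, 0.764 and 1.03 FPKM on HFD and 2.56, 1.52 and 2.68 FPKM on chow (-1.05 ± 0.22, adjusted p = 0.00642). Mybpc2 was at 0.889, 0.557 and 0.159 FPKM on HFD and 1.25, 1.14 and 1.05 FPKM on chow in irisin mice (-0.73 ± 0.25, adjusted p = 0.0652), and at 0.455, 0.373 and 0.217 FPKM on HFD and 1.72, 1.58 and 1.33 FPKM on chow in GFP mice (-1.27 ± 0.25, adjusted p = 0.00463). Within each vector the diets did not overlap for either gene. Of genes tested, 17.6% lay below on HFD in this way in irisin mice and 21.1% in GFP mice. Across vectors the diets overlapped for Pygm, with irisin HFD 1 at 1.58 FPKM and GFP chow 2 at 1.52 FPKM. Actn3 was less clear: at 0.358, 0.546 and 1.16 FPKM on HFD and 3.37, 1.15 and 7.89 FPKM on chow in GFP mice the groups overlapped, with a log2 fold change of -1.72 ± 0.51 (adjusted p = 0.0289). In irisin mice it was at 1.66, 0.745 and 0.441 FPKM on HFD and 2.55, 2.28 and 2.20 FPKM on chow. Those groups did not overlap, and Actn3 was not called (-1.06 ± 0.51, adjusted p = 0.171 by limma). For Myl1 the log2 fold change was -1.14 ± 0.27 in GFP mice (adjusted p = 0.0106 by limma) and -0.75 ± 0.27 in irisin mice (0.0767). The GFP count of 8 in both directions, against 26.5% of genes, was 5 without GFP HFD 1. In GFP mice Actn3 and Casq1 were each called under 9 of 16 alternatives and Tnni2 under 13 of 14. In irisin mice Pygm was called under 9 of 16, Pvalb under 10 of 16, Casq1 under 11 of 16 and Tnni2 under 10 of 14. Voom did not call Pvalb in irisin mice (adjusted p = 0.0529).

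**Figure D5:**
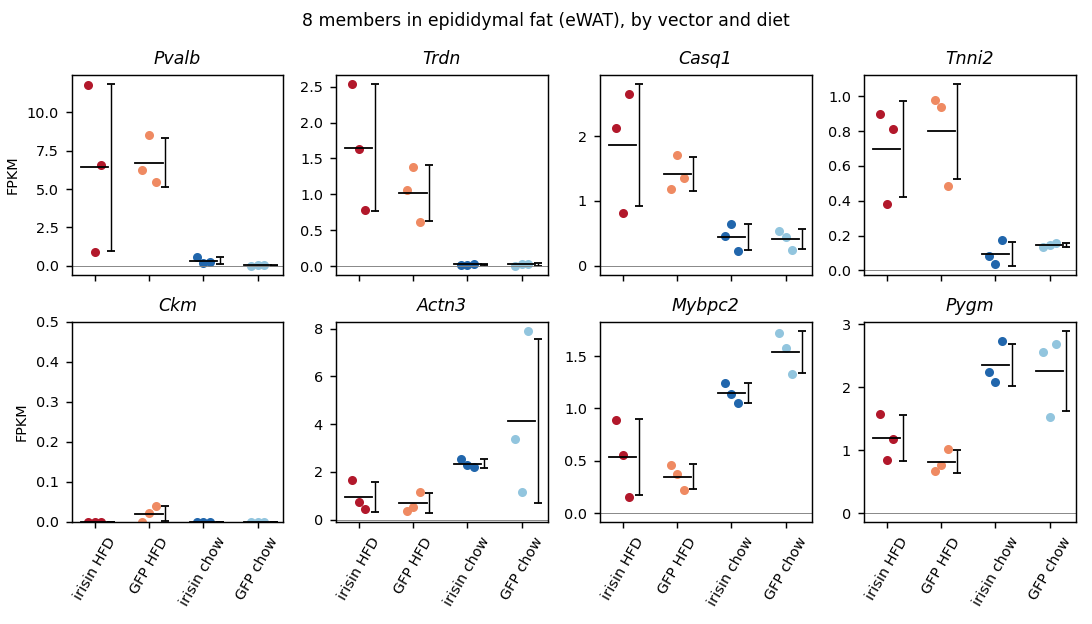
FPKM in the 12 eWAT libraries of 4 members higher on HFD (top), of Ckm, and of 3 members lower on HFD (bottom right), by vector and diet; each point is a library, the horizontal line is the mean of 3 and the bar beside it its SD. Pvalb is at 0.897 FPKM or more on HFD and at 0.576 FPKM or less on chow, while Ckm stays at or under 0.0384 FPKM in every library.

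Markers of other cells moved with diet in eWAT as well. The mesothelial markers Wt1, Upk3b and Msln summed to 104, 131 and 13.9 FPKM in irisin HFD libraries, against 246, 159 and 248 FPKM in irisin chow libraries. In GFP mice they summed to 54.9, 48.0 and 52.8 FPKM on HFD, against 193, 232 and 286 FPKM on chow. All 3 were called lower in GFP mice (11.8% of genes), and Wt1 in irisin mice (7.93% of genes). Of the 10 adipocyte genes, 2 were called lower and 1 higher on HFD in irisin mice (7.93% and 9.47% of genes). In GFP mice 6 were called lower and 1 higher (11.8% and 14.7% of genes). Actn3 and Mybpc2 were at most 0.770 and 0.789 FPKM in all 9 iWAT libraries outside irisin chow, where the mesothelial sum was at most 0.251 FPKM. The part of cell composition in the diet differences was not tested. Under every one of the 16 alternatives, which include leaving out each library and the libraries rich in other tissues, the model called Pvalb, Trdn, Mybpc2 and Pygm in GFP mice, and Trdn in irisin mice too.

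Genes outside the members that act beside calsequestrin and triadin went both ways with diet in eWAT. Of the 17 further triad genes 8 were tested, of which 5 were above 0 on HFD in irisin mice and 4 in GFP mice. There were 3 called higher in irisin mice (9.47% of genes) and 3 in GFP mice (14.7% of genes), with 0 called lower in either. They were Jph1, which ties the surface membrane to the calcium store, Srl and Jsrp1 each time, and Jph1 and Jsrp1 were named after their values were seen. Jsrp1 was at 0.505, 0.539 and 0.574 FPKM on HFD and 0.135, 0 and 0 FPKM on chow in irisin mice, and at 1.19, 0.439 and 0.755 FPKM on HFD and 0.198, 0.162 and 0 FPKM on chow in GFP mice. The median of the 8 tested genes was 0.16 on the log2 scale with each vector, against 0.00 over all genes. Of 14 further metabolic genes 11 were tested. In irisin mice 4 were called higher (9.47% of genes) and 2 lower (7.93% of genes). In GFP mice 5 were called higher (14.7% of genes) and 3 lower (11.8% of genes). Cox6a2, the muscle form of a respiratory subunit, was at 6.85, 1.06 and 4.88 FPKM on HFD and 0, 0 and 0.0948 FPKM on chow in irisin mice (log2 fold change 2.90 ± 0.48, adjusted p = 0.00429 by limma), and in GFP mice the log2 fold change was 2.62 ± 0.48 (adjusted p = 0.00337). The lowest irisin HFD library for Cox6a2 was the one lowest for Pvalb. Of 28 further sarcomere genes 8 were tested, with 1 called higher and 0 lower in irisin mice, and 2 higher and 1 lower in GFP mice. The shares of genes called are those given for the metabolic genes.

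In iWAT of GFP mice 0 of 22 members were called between diets, against 2.37% of genes (1.44% higher and 0.924% lower on HFD). None had an unadjusted p under 0.05, and voom called 0 members. Of the 39 members 4, Pvalb, Casq1, Trdn and Ttn, had all HFD above all chow libraries, a share near the 12% of genes tested. Of these 4 only Pvalb and Casq1 were among the 22 tested. In 1 member, Acta1, which was tested, all HFD libraries were below (11.3% of genes tested). Pvalb was at 1.08, 5.88 and 1.74 FPKM on HFD and 0, 0.170 and 0 FPKM on chow (log2 fold change 2.36 ± 1.15, adjusted p = 0.294 by limma). Casq1 was at 2.19, 5.32 and 2.16 FPKM on HFD and 0.281, 0.940 and 0.255 FPKM on chow (1.87 ± 1.01, adjusted p = 0.343). Trdn was at 0.0163, 0.248 and 0.0854 FPKM on HFD and 0.00587, 0.0126 and 0 FPKM on chow, and was too low in iWAT to be tested. The 4 iWAT groups share 1 estimate of spread in this model, irisin chow libraries included. Only 11 of the 22 members reached the expression minimum without the irisin chow libraries. Fitted without the other groups, the comparison also called 0 members. In irisin mice the HFD libraries were at 3.90, 0.144 and 3.75 FPKM for Pvalb and 5.41, 0.423 and 2.80 FPKM for Casq1, with library 2 the low one for both.

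In eWAT, irisin against GFP was called for 0 of 14 members on chow (0% of genes; 0 members and 845 genes at an unadjusted p under 0.05) and for 0 of 14 on HFD (0% of genes; 1 member and 1510 genes), and voom called 0 members in both. The difference between diets was called for 0 members (0.00614% of genes; 2 members and 658 genes; 0 by voom). The member with an unadjusted p under 0.05 on HFD was Ldb3, at 1.30, 3.41 and 1.01 FPKM in irisin HFD libraries, against 0.638, 0.747 and 0.742 FPKM in GFP HFD libraries (log2 fold change 0.86 ± 0.31, adjusted p = 0.533 by limma). Acta1 was at 11.5, 90.1 and 13.2 FPKM, against 9.79, 9.86 and 11.3 FPKM (1.19 ± 0.64, adjusted p = 0.552). In both genes irisin HFD 2 was the highest of the 21 libraries outside iWAT irisin chow. The same library had the highest value of all 24 for Acta2, the smooth muscle actin, at 251 FPKM, and for Smyd1 and Hspb7, at 11.5 and 24.1 FPKM, while Ckm and Myh4 were at 0. The part of smooth muscle in its Acta1 level was not tested. Without irisin HFD 2 the log2 fold change of Acta1 was 0.25.

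Fndc5, the irisin precursor and itself a gene of muscle, was not one of the 39. In iWAT it was at 0.392, 3.17 and 3.91 FPKM in irisin HFD, 0.258, 0.163 and 0.193 FPKM in GFP HFD, 0.621, 1.21 and 2.93 FPKM in irisin chow and 0.735, 0.578 and 0.157 FPKM in GFP chow libraries. In eWAT it was at 3.32, 4.94 and 1.04 FPKM in irisin HFD, 3.22, 3.13 and 1.44 FPKM in GFP HFD, 0.456, 0.801 and 1.40 FPKM in irisin chow and 0.454, 0.131 and 0.390 FPKM in GFP chow libraries. Its highest iWAT chow value was in the library with most muscle RNA, but the iWAT irisin HFD libraries 2 and 3 were higher with Myh4 at 0 and 1.30 FPKM. On HFD in eWAT of GFP mice Fndc5 was higher than on chow by 1.87 ± 0.45 (log2 fold change; adjusted p = 0.0116 by limma). The corresponding value in irisin mice was 1.25 ± 0.45 (0.0761). How much of the signal came from the vector's own transcript was not tested.

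Across the 24 libraries the protein-coding genes outside all lists whose log2(FPKM + 0.5) ran most like the log2 summed level of the members were Hfe2 (Pearson's r = 0.96), Trim72 (0.95), Art1, Tmem38a and Mlf1 (0.94 each), Tmem233 and Nrap (0.93 each) and Apobec2 (0.93), out of 9250 genes with at least 5 FPKM in a library. The iWAT irisin chow libraries that chose the members also set the high end of this sum, so the likeness restates that choice. In iWAT irisin chow 3 these genes were at 6.15 to 34.6 FPKM. Trim72 seals torn surface membranes, Tmem38a is an ion channel of the calcium store, and Nrap lies where myofibrils end. Tmem233 was at 0.139, 0.369 and 6.15 FPKM in the irisin chow libraries and at most 0.123 FPKM in the other 21.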

How the data were processed

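RNA was selected with poly-T beads and sequenced on an Illumina instrument, per the labels' protocols. The submitters' processing notes name HISAT2 2.0.5 for alignment and featureCounts 1.5.0-p3 for counting. Genome build and use of strand: not given in the sources used here. From this the authors deposited 1 table of FPKM values for 54532 genes in 24 libraries. It also holds 8 numeric columns that were not used.

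Read numbers were recovered from FPKM and gene length. They came out whole within 0.01 for 100% of values and gave 14.1 M to 19.7 M reads per library. No pair of libraries held identical values.

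Within each depot, genes that reached 0.5 FPKM in 3 or more of the 12 libraries were fitted with limma 3.58.1 (R 4.3.3) on log2(FPKM + 0.5). The fit had 4 groups and a trended variance, Benjamini-Hochberg adjustment ran over all genes, and genes were called at an adjusted p under 0.05. Fold changes on this scale understate low genes. An exact permutation test of 3 against 3 cannot go below 0.1. The model was tested on simulated data. Intervals are Wilson for shares and exact for ratios, at 95%, and a zero was bounded by 3 reads.

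Alternatives were other pseudocounts (1, 0.1), no filter or 1 FPKM, other scalings, a replicate block, the compared groups alone, voom on the reads, each library left out, and 4 libraries rich in other tissues left out. Members, lists and tests were chosen with earlier results of these data known. Named genes are the 39 members, up to 4 genes per list with the highest mean FPKM in the iWAT irisin chow libraries, Fndc5, and the 8 genes of most like pattern. Outside this rule, Smyd1, Hspb7, Jph1, Jsrp1, Ckmt2, Myod1, Pax7, Chrna1, Chrnd, Nppa, Nppb, Krt5 and Krt14 were chosen after their values were seen. Promoters were read from RefSeq (GRCm38.p6), and figures were drawn with matplotlib 3.10.9. A result on 1 gene of the nerve list is not reported here.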

Additional observations from a re-analysis of the deposited data

Results flagged for a closer look

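For 6 genes the effect of diet or vector ran one way in all libraries of one setting and the opposite way in all libraries of another. These differences were not tested, except that of Pvalb between vectors in iWAT. Each of them involves the iWAT irisin chow libraries, whose values chose the genes. How many of all genes do so was not computed, and nothing is read from the count of 6. Ryr1, Neb and Ttn were under the expression minimum in both depots. Ttn was at most 0.0119 FPKM in eWAT on chow.

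In irisin mice, the HFD effect on Tnni2 was -5.05 on the log2 scale in iWAT and 0.98 in eWAT, a difference of -6.04. That on Pvalb was -4.53 in iWAT and 2.61 in eWAT, a difference of -7.14. For Ryr1 the values were -2.21 and 0.34, a difference of -2.55, and for Neb -1.58 and 0.12, a difference of -1.70.

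On chow, the irisin effect on Mybpc2 was 4.41 in iWAT and -0.31 in eWAT, a difference of 4.72. For Neb it was 1.64 and -0.10, a difference of 1.74, and for Ttn 1.29 and -0.02, a difference of 1.31.

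Within iWAT, the HFD effect on Pvalb was -4.53 in irisin mice and 2.36 in GFP mice. The difference of -6.89 had an adjusted p of 0.688 by limma. For Ttn the HFD effect was -1.28 in irisin mice and 0.08 in GFP mice, a difference of -1.36.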

How the results depend on the processing

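The counts of members called were computed for 10 comparisons under 98 settings other than leaving out 1 library, and 96 stayed within 1.5 times the reported count. Most of these settings belong to comparisons with a reported count of 0, where a count of 0 is taken as unchanged. For HFD against chow in iWAT of irisin mice, voom called 1 member in place of 12, and in eWAT of irisin mice the compared groups alone gave 1 in place of 5. The causes were not tested. Leaving out 1 library at a time gave 0 to 7 members for irisin against GFP on chow in iWAT, 5 to 12 for HFD against chow in iWAT of irisin mice, 1 to 5 in eWAT of irisin mice and 5 to 9 in eWAT of GFP mice; the other 6 comparisons stayed at 0. The shares of all genes called in these fits are not given here, so the counts describe the members only. Of 688 alternative values for 44 single-gene results, 42 lost the call, 18 gained one and 0 changed sign. The 42 fell within 9 of the 44 results, and results not called in the main fit had no call to lose.

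Without division by gene length, the read ratios in iWAT irisin chow 3 were 349 for Myh4 to Myh7, 135.6 for Mylpf to Myl2, 212 for Tnnt3 to Tnnt1, 184 for Tnni2 to Tnni1, 45.8 for Casq1 to Casq2 and 2.70 for Mybpc2 to Mybpc1. As shares of reads the members stood at 3.13, 8.98 and 119.6 times the median of the other 21 libraries in irisin chow 1, 2 and 3.

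Replicate numbers are shared between groups, but same-numbered libraries correlated at -0.19 to 0.34 and in no comparison were all 3 over 0.1, so the numbers were not taken as pairs. With a replicate block the model called 13 members for HFD against chow in iWAT of irisin mice and 7 in eWAT of irisin mice, and 0 for irisin against GFP on chow in iWAT. The shares of all genes called with the block are not given here, and the iWAT libraries of irisin mice on chow chose the list. Between 0 and 6 of 6 libraries correlated best with their own number. Members near 0 FPKM rest on a few reads, and 16 were too low to test in either depot.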
